A study of Mus musculus with 6 samples.

Results

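The regions described here are stretches of the mouse genome inside protein-coding genes at which a 5-hydroxymethylcytosine (5hmC) peak was called in both libraries of Tet2 KO cells and in neither library of Tet2 flox cells. Peaks of the 4 libraries were merged wherever they shared 1 bp or more. Of 171780 merged autosomal regions, 68573 had their midpoint inside the span of a RefSeq protein-coding gene, and 1860 of these, lying in 1461 genes, had the KO-only pattern. The regions were chosen by the peak calls of the 4 libraries themselves, so presence in KO and absence in flox is a description of them and was not tested.

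All cells were C57BL/6 bone marrow cells enriched for Kit, homozygous for a floxed Tet2 allele and carrying CreER, a Cre recombinase that 4-hydroxytamoxifen activates. All were transduced with the retrovirus MigR1-AE-IRES-GFP, which delivers AML1-ETO, a fusion protein made by a chromosome translocation in some acute myeloid leukaemias, and all were grown with SCF, IL-3 and IL-6. KO cells (labelled Tet2-/-, 2 libraries) had been given 200 nM 4-hydroxytamoxifen for 2 passages, and flox cells (labelled Tet2fl/fl, 2 libraries) had been given ethanol. Immature myeloid cells sorted as GFP+, CD11b-, Gr1-, CD16/32+ at passage 5 were profiled by immunoprecipitation of DNA with an antibody to 5hmC and sequencing. Drug and active Cre were present in KO cultures alone, so their effects and those of Tet2 loss cannot be told apart. The sources used here do not give the age of the mice, the promoter of CreER or whether replicates came from separate cultures. The spread between libraries may therefore be technical. Peak positions do not measure expression, so the sorted cell type was not checked here. The 4 lists held 116539 to 122101 peaks, with the most in KO replicate 2 and the fewest in KO replicate 1. The number of reads behind them was unknown.

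TET enzymes, of which Tet2 is the member most often mutated in myeloid malignancy, oxidise 5-methylcytosine to 5hmC as a step of DNA demethylation. In blood cells 5hmC is found in the bodies of genes and at enhancers, many of which lie in introns. Tet1 and Tet3 encode the other enzymes of the family, so cells without Tet2 can still hold 5hmC. None of the regions lay in Tet1, Tet2 or Tet3. At Tet2 itself 1 region was called in all 4 libraries, but it checks nothing about the deletion, as the labels do not say which part of the gene was excised.

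A few of the regions touched the promoter window of a transcription start, and the windows of the 4 with the highest scores are shown because they are the places where a KO-only peak meets an annotated promoter. Each is the RefSeq window of 250 bases before to 50 bases after a start (GRCm38.p6), written 5′ to 3′ in the direction of the gene, with every CG dinucleotide, the site of most cytosine methylation in mammals, in capitals.
Rbms2: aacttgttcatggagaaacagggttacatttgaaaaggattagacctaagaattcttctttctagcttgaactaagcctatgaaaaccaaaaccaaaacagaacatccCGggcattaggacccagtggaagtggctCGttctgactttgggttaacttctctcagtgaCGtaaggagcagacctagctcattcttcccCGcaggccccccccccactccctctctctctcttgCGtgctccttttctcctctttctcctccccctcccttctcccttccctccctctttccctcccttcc
Mecom: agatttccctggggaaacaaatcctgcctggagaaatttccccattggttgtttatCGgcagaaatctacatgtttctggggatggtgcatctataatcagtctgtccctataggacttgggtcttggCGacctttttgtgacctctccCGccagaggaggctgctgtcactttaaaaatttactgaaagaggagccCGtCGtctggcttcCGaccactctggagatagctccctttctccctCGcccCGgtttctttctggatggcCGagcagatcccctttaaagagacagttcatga
Ppme1: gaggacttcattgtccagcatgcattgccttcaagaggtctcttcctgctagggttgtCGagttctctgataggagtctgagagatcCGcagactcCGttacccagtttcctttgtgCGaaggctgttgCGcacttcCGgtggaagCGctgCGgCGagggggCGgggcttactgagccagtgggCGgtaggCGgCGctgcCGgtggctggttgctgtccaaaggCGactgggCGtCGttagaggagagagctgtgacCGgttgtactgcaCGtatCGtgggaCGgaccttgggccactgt
Fam117a: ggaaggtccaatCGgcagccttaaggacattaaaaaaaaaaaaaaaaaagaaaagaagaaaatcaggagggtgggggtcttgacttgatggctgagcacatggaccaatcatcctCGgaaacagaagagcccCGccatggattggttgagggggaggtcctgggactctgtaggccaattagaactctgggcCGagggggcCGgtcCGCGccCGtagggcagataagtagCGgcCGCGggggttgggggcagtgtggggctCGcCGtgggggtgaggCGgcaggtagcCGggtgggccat

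The Rbms2 window (chr10:128176519-128176818, minus strand) lay wholly within a KO-only region and held 5 CG. It belongs to a start inside the gene, as the region's midpoint lay 3.73 kb from the gene's 5′ end. Rbms2 encodes an RNA-binding protein, and its region (chr10:128176307-128176831) had peak scores of 166 and 140 in KO replicates 1 and 2. The score is the authors' own value for a peak within its library, equal to -10 log10 of the p-value deposited with it, and no peak in the lists scored under 50. Mecom encodes a zinc finger transcription factor of blood stem cells whose activation marks some myeloid leukaemias. Its window (chr3:30013155-30013454, minus strand) belongs to a start deep in the gene and held 9 CG, most of them outside the bases that a KO-only region covered. The region (chr3:30013339-30014271) covered 116 of 300 bases and had scores of 107.90 and 123.33. That region lay 5.31 kb from the nearest flox peak, and it was the single KO-only region in a gene with 46 regions.

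Ppme1, which encodes a methylesterase of protein phosphatase 2A, had 21 CG in its window (chr7:100371847-100372146, minus strand), of which the KO-only region (scores 99.3 and 149) covered 68 bases. Fam117a had 15 CG (chr11:95336768-95337067, plus strand), and its region covered 292 bases with scores of 115 and 90.8. The CG counts are of whole windows, and in Ppme1, as in Mecom, most CG lay outside the covered bases. Counts of the 4 windows straddled the median of 14 over all 20085 windows of autosomal protein-coding genes. The windows were also searched on both strands for the letters TGTGGT and TGCGGT, which are bound by RUNX factors such as the AML1 part of AML1-ETO. Neither was present in the 4 windows, while 14.8% of all windows held TGTGGT and 7.50% held TGCGGT. The GATA motif AGATAA occurred in the Fam117a window (9.57% of all windows), the ETS motif CCGGAAGT in the Ppme1 window (5.28%), and the E-box CACGTG (7.89%) in none of the 4. The GATA match lay within the bases covered by the KO-only region, and the ETS match lay outside them. A match shows only that these letters are present. Lower-scored regions touched the promoter windows of Apoa2, an apolipoprotein gene (scores 76.8 and 79.6), and Fbxw26 (75.4 and 122). Both of these windows held the first of the RUNX motifs, as did that of Fbxw15. In Apoa2 the region covered 36 of 300 bases, and the motif lay outside them. In Fbxw26 it covered 230, and the motif lay within them. In Fbxw15 it covered 51, and the place of the motif is not given here. The second was in windows including those of Mesd, Mab21l3, Krt24, Dcaf5 and Zfp37, and the E-box in windows including those of Cnot4 and Lexm. The absence of these motifs was therefore limited to the 4 windows shown and did not extend to all windows that KO-only regions touched.

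In all, 31 of the 1860 regions touched a promoter window (1.67%, 95% Wilson interval 1.18 to 2.36, covering counting error over regions only, as do all such intervals here). The share among the pairs of 1 KO and 1 flox library, called mixed pairs below, was 1.30% to 3.19%, and among flox-only regions 1.57%. Regions called in all 4 libraries touched one in 3.41% of cases. KO-only regions thus met promoters within the range of mixed pairs. No KO-only region overlapped any of 919 autosomal miRNA hairpins, against 1 to 4 hairpins in mixed pairs and 2 in flox-only regions.

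KO-only regions inside genes were about as numerous as regions shared by a KO and a flox library. Mixed pairs serve as the noise reference, since regions called in 1 KO and 1 flox library and in neither other library cannot follow genotype. KO-only regions made up 2.71% of the regions inside genes (1860 of 68573). KO replicate 1 shared 1725 such regions with flox replicate 1 (2.52%) and 1612 with flox replicate 2 (2.35%), and KO replicate 2 shared 1972 (2.88%) and 1984 (2.89%). The KO pair lay inside this range, at 1.02 times the mean of the 4 mixed pairs, while flox-only regions, at 2235 (3.26%), lay above it. Peaks of all 4 libraries met at 27768 regions in genes (40.5%). Genes holding a KO-only region were 11.7% of the 12485 genes with any region, against 10.6% to 12.9% for mixed pairs and 14.7% for flox-only regions.

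**Figure D1:**
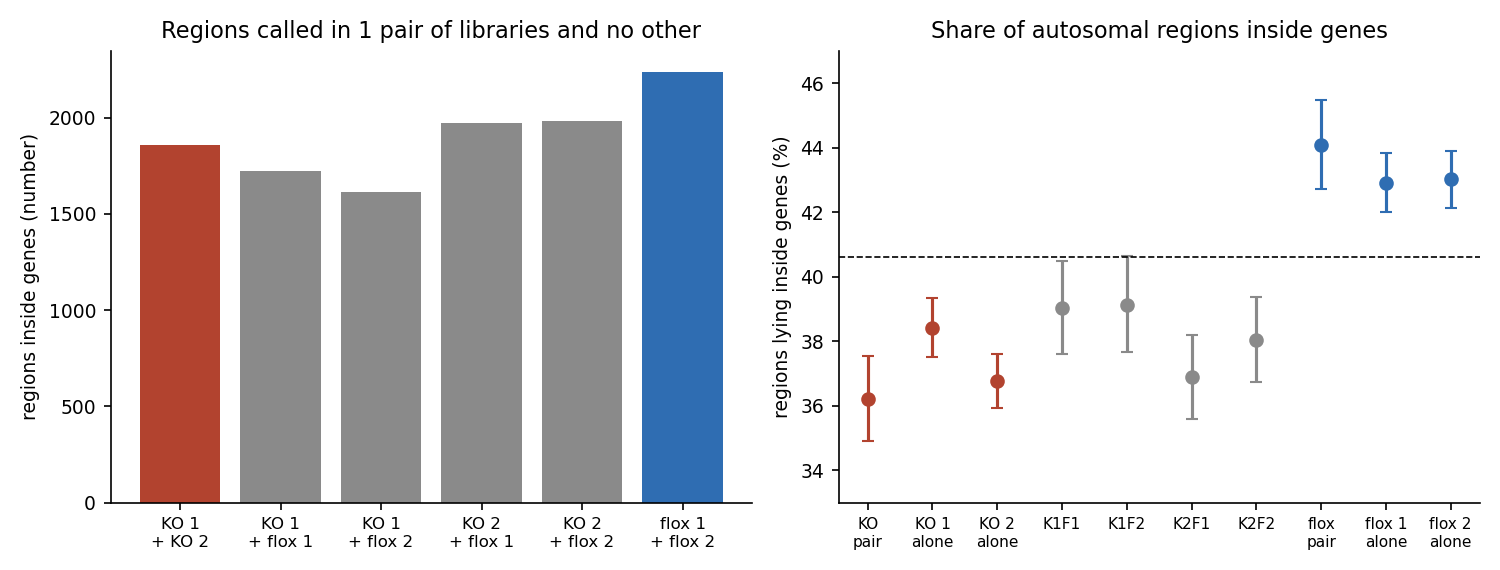
Left, number of regions inside genes called in 1 pair of libraries and in no other library, with the KO pair in red, the 4 mixed pairs in grey and the flox pair in blue. Right, share of autosomal regions lying inside genes (%), with 95% Wilson intervals, for regions of a pair and for regions called in 1 library alone (K1F2 stands for KO replicate 1 with flox replicate 2), and a dashed line for regions called in all 4 libraries (40.6%). The KO pair's 1860 regions sit among the mixed pairs on the left, and its 36.2% is the lowest share on the right.

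A smaller part of KO-only regions than of other regions lay inside genes. Of 5136 autosomal KO-only regions, 36.2% lay in genes (34.9 to 37.5), against 36.9% to 39.1% of mixed-pair regions, 44.1% of flox-only regions and 40.6% of regions called in all 4 libraries. The interval of KO-only regions overlapped those of 2 mixed pairs, both of KO replicate 2, and ended just below those of the pairs of KO replicate 1. Regions called in 1 library alone, none of which is a KO-only region by the rule, lay in genes in 38.4% and 36.8% of cases for KO replicates 1 and 2, against 42.9% and 43.0% for flox replicates 1 and 2. In both kinds of region the KO libraries were below the flox libraries without overlap. These values come from the same contrast as the rule and were not tested, and 2 libraries against 2 allow no exact p under 0.333.

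The peaks behind KO-only regions were weak. Their scores had a median of 68.0 in KO replicate 1 and 70.1 in KO replicate 2, which stood at the 25.2th and 26.1th percentiles of the lists they came from. In KO replicates 1 and 2, 49.6% and 48.0% of these peaks were in the lowest 25% of their list, and 0.968% and 2.20% in the highest 25%. The lower of the 2 KO scores, the measure of strength used from here on, had a median of 60.3 (quartiles 54.6 and 70.5), against medians of 59.5 to 60.6 in mixed pairs and 61.2 in flox-only regions. A lower score of at least 100 was reached by 51 KO-only regions (2.74%), by 2.23% to 3.65% of mixed-pair regions and by 105 flox-only regions (4.70%). For regions called in all 4 libraries, whose lower score is taken over 4 peaks, that share was 42.7%.

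**Figure D2:**
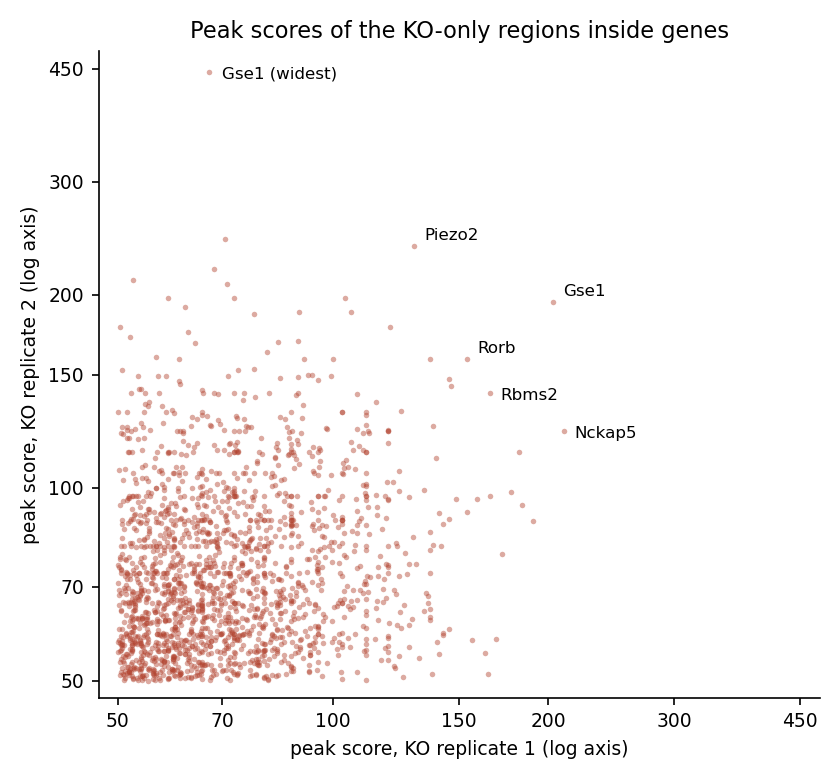
Peak score in KO replicate 1 (x axis, log scale) and in KO replicate 2 (y axis, log scale) for each of the 1860 KO-only regions inside genes, 1 point a region, with some host genes named. The lower of the 2 scores has a median of 60.3, close to the lowest score of 50 in the lists, and is highest at a region in Gse1 (203 and 194).

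At the edge of the rule stood regions that differed by little from those outside it. The lowest lower score was 50.01, at a region in the kinesin gene Kif14 (chr1:136500511-136501427), and 48.7% of KO-only regions had a lower score under 60. A region in Fggy (chr4:95576116-95576996) was kept although a flox peak ended or began 2 bp away. A region in the calcium channel gene Cacna1d (chr14:30315269-30317233), with KO scores of 71.0 and 66.3, was left out because a flox peak scoring 56.4 shared 45 bp with the KO peaks. In genes, 5479 regions had both KO libraries and 1 flox library, and in 1165 of them (21.3%) that flox peak scored under 60. A flox peak lay within 10 kb of 73.7% of KO-only regions, at a median distance of 4.66 kb over all of them.

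The 2 KO peaks of a region mostly coincided. Their shared bases made up a median of 74.2% of the region, against 72.1% to 73.6% in mixed pairs and 74.1% in flox-only regions, and in 91.1% of KO-only regions at least 50% was shared. Regions spanned 386 to 3049 bp, with a median of 923 bp, against medians of 923 to 944 bp in mixed pairs and 992 bp in flox-only regions. KO-only regions were thus about as wide as those of mixed pairs.

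The strongest KO-only region lay in Gse1, which encodes a coiled-coil protein found with the LSD1 and HDAC corepressor complex. This region (chr8:120320325-120320782) had scores of 203 and 194 in KO replicates 1 and 2, at the 86.5th and 85.3th percentiles, and lay 92.1 kb from the 5′ end of the gene. Gse1 also held the widest KO-only region of all (chr8:120281602-120284650, 3049 bp), which was strong in KO replicate 2 alone (scores 67.1 and 445). Another KO-only region (scores 69.3 and 61.0), 2 flox-only regions and no mixed-pair region lay in the same gene. Of its 58 regions, 33 were called in all 4 libraries. Over the whole gene 55679 and 53466 bp were under peaks in KO replicates 1 and 2, against 65086 and 55801 bp in flox replicates 1 and 2.

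The next strongest regions were spread over genes of different function. Rorb, an orphan nuclear receptor gene, had a region of 457 bp with scores of 154 and 159 (chr19:19099819-19100275), and 2 of its 6 regions were KO-only, with none flox-only and none in mixed pairs. Lpp, which encodes a LIM domain protein of cell adhesions, had scores of 145 and 148 (chr16:24466991-24467777). Klf12, a Krüppel-like repressor gene, had 146 and 144 (chr14:99979033-99980144), with the nearest flox peak 27.8 kb away. At these 3 genes the 2 KO libraries gave nearly equal scores.

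In others 1 KO library stood well above the other. Piezo2, a mechanically gated ion channel gene, had scores of 130 and 238 (chr18:63234020-63234897). Nckap5 had 211 and 122 (chr1:126265473-126265914), and Nxpe4 had 120 and 178 (chr9:48183030-48183862). The unconventional myosin gene Myo3b (138 and 125, chr2:70065921-70066512) and Acot11, an acyl-CoA thioesterase gene (125 and 132, chr4:106776667-106777535), completed the 10 strongest with the Rbms2 region shown above. Regions in unnamed gene models (Gm or Rik symbols) were passed over in this ranking.

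Regions with a high lower score were often narrow, and some had identical scores. Of the 51 with a lower score of at least 100, 19 (37.3%) spanned under 600 bp, against 6.41% of the other 1809. These shares were not set against mixed pairs or flox-only regions, so they are not shown to be particular to KO-only regions. The score 111.16 of KO replicate 1 occurred at 8 of the 51, and 569 peaks of that list had this score. Ctnna3, an alpha-catenin gene (111 and 114, chr10:64308351-64308804), and Tcf12, an E protein gene (111 and 100, chr9:71996670-71997375), were among them. The part that repeated scores play in the KO-only calls was not tested.

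The other 4 of the 5 widest regions had scores under 100 in both libraries. They lay in the sodium channel gene Scn10a (chr9:119650121-119652415, 2295 bp, scores 82.8 and 61.3), in Pias1, a SUMO ligase gene (chr9:62959564-62961759, 2196 bp, 61.8 and 68.9), in Psd, an exchange factor gene for ARF6 (chr19:46321199-46323302, 2104 bp, 77.5 and 97.0), and in the neural adhesion gene Dscam (chr16:96774582-96776538, 1957 bp, 64.2 and 56.01).

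By median length, KO-only regions lay in longer genes than other regions. The longest gene around a KO-only region had a median length of 169 kb, against 138 to 151 kb for mixed pairs, 114 kb for flox-only regions and 131 kb for regions called in all 4 libraries. Regions of 1 KO library alone gave 153 and 152 kb, and those of 1 flox library alone 128 and 114 kb. At the extremes KO-only regions did not stand apart from mixed pairs. Genes over 500 kb held 19.2% of KO-only regions, against 17.4% to 19.2% in mixed pairs and 13.6% of flox-only regions. Genes under 50 kb held 21.7%, against 20.8% to 23.5% in mixed pairs and 27.2% of flox-only regions. In genes under 20 kb, 2.21% of regions were KO-only (1.87 to 2.62) and 3.90% were flox-only (3.44 to 4.42). In genes of 500 to 1000 kb, 3.12% were KO-only (2.73 to 3.55) and 2.47% flox-only (2.13 to 2.86). Mixed pairs ranged from 1.97% to 2.76% in the short genes and from 2.58% to 3.10% in the long ones, so mixed pairs were also more frequent in the long genes, and flox-only regions had the opposite order.

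**Figure D3:**
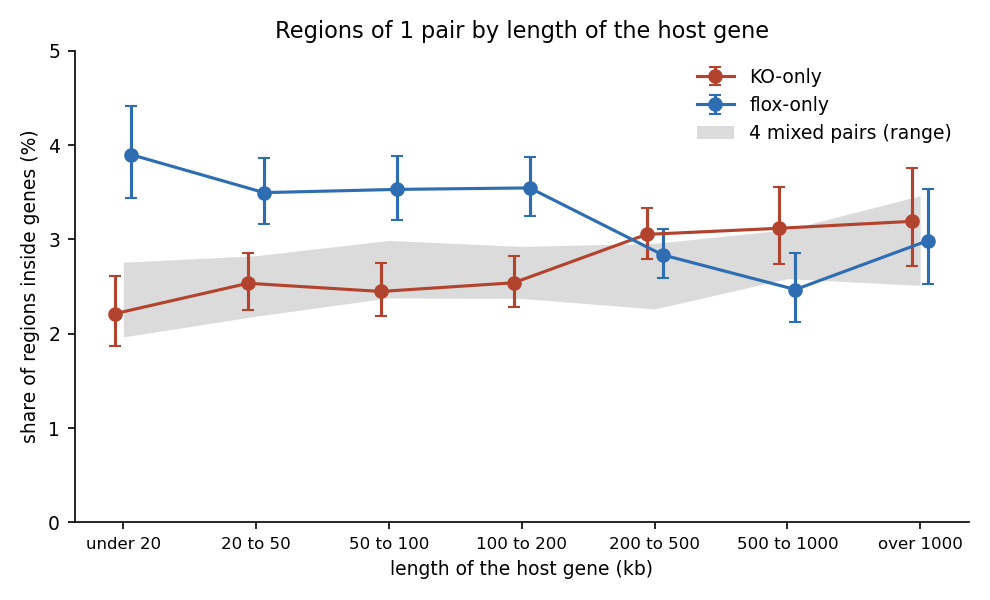
Share of all regions inside genes (%) that were KO-only (red) or flox-only (blue), by length of the longest host gene in kb, with 95% Wilson intervals, and the range over the 4 mixed pairs in grey. KO-only regions go from 2.21% in genes under 20 kb to 3.19% in genes over 1000 kb and stay close to the grey range, while flox-only regions start above it at 3.90%.

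Within genes, KO-only regions had a larger median distance to the gene's ends than regions of the other pairs. Distances were not adjusted for the longer genes that held KO-only regions. Their median distance to the nearer end was 31.4 kb, against 27.0 to 29.4 kb in mixed pairs and 24.3 kb in flox-only regions. More than 100 kb from either end lay 24.4% (22.5 to 26.4), against 20.8% to 21.7% in mixed pairs, 17.3% in flox-only regions and 19.3% in regions called in all 4 libraries. The KO-only interval lay above the 4 mixed-pair values and overlapped their intervals. Within 10 kb of an end lay 24.4% as well, against 24.3% to 27.0% in mixed pairs and 29.2% in flox-only regions. Within 1 kb of an end lay 3.71%, inside the 2.49% to 4.77% of mixed pairs. The strand of the gene was known for 1437 of the regions. Of these, 22.5% lay in the first 20% of the gene from its 5′ end and 15.8% in the last 20%, against 21.3% to 22.7% and 16.9% to 18.4% in mixed pairs and 19.2% and 18.4% in flox-only regions.

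The surroundings of KO-only regions held no more 5hmC peaks in KO than in flox. Within 10 kb on either side, the region itself left out, an average of 1063 bp was under peaks in each KO library, against 1115 and 1077 bp in flox replicates 1 and 2, a KO minus flox difference of -33.5 bp. Both flox libraries were above both KO libraries. In mixed pairs the difference between the pair's own libraries and the other 2 ran from -17.8 to 38.9 bp. Each side of that difference holds 1 KO and 1 flox library, so an offset common to the flox libraries cancels there. It does not cancel between the KO and flox pairs. Around mixed-pair regions KO means were 982 to 1081 bp and flox means 1029 to 1173 bp. In each mixed pair the flox libraries together were above the KO libraries together, as around KO-only regions. Around flox-only regions, KO replicates 1 and 2 had 1171 and 1159 bp and flox replicates 1 and 2 had 1303 and 1273 bp, so the flox pair's own libraries were higher by 122.97 bp. Around regions called in all 4 libraries the means were 1278 and 1274 bp in KO and 1347 and 1322 bp in flox. By region, the KO sum was higher at 715, lower at 758 and equal at 387 of the 1860.

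**Figure D4:**
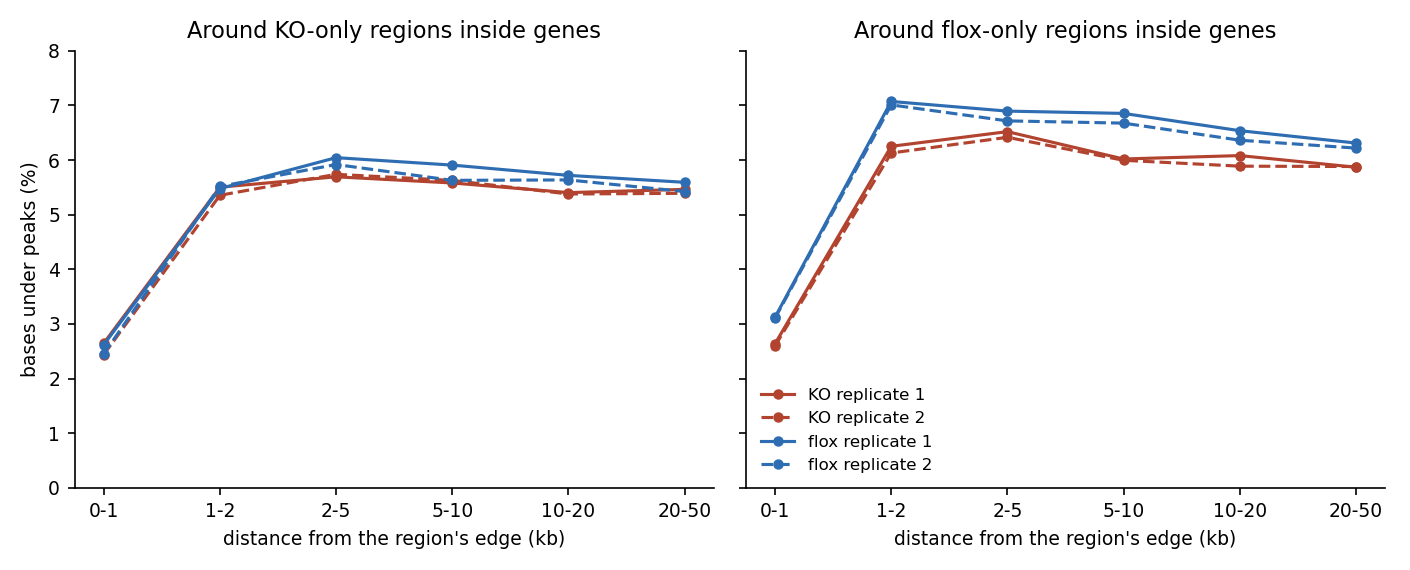
Share of bases under peaks (%) by distance from the edge of the region (kb), in KO replicates (red) and flox replicates (blue), around KO-only regions inside genes (left) and flox-only regions inside genes (right), means over regions. Left, the KO lines run close to or below the flox lines (5.69% and 5.74% in KO against 6.04% and 5.92% in flox at 2 to 5 kb), and right, the flox lines run above the KO lines at every distance.

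A region called in all 4 libraries lay within 5 kb of 30.5% of KO-only regions, against 29.0% to 30.5% in mixed pairs and 32.2% in flox-only regions. The genome-wide spread over chromosomes was close to that of mixed pairs. On 16 of 19 autosomes the number of KO-only regions in genes was within the range of the mixed pairs. It was above on chromosome 8 (119, against 86 to 111 in mixed pairs) and below on chromosomes 11 (98, against 102 to 129) and 14 (67, against 72 to 85).

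The genes with the most KO-only regions were long. Of the 1461 host genes, 1168 held 1 region, 200 held 2, 66 held 3 and 27 held 4 or more. Genes with 3 or more were 93 for KO-only regions, 61 to 81 for mixed pairs and 77 for flox-only regions. Genes with 4 or more were 27, inside the 22 to 36 of mixed pairs. The 27 genes had lengths of 177 to 2197 kb with a median of 913 kb. Of the KO-only regions, 38.7% shared a gene with another, against 31.0% to 35.9% in mixed pairs and 33.6% in flox-only regions. Flox-only regions lay in 451 of the 1461 host genes (30.9%), which is 24.6% of the 1833 genes with a flox-only region.

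Magi1 had the highest share of KO-only regions among the 8 genes with the most. It encodes a membrane-associated scaffold protein of cell junctions (chr6:93675453-94283929). Of its 20 regions 6 were KO-only, 0 were flox-only and 0 to 1 belonged to each mixed pair. KO replicates 1 and 2 had 11528 and 11760 bp under peaks in the gene, against 8296 and 7958 bp in flox replicates 1 and 2, with 14 and 15 peaks in KO and 11 and 9 in flox. These sums include the KO-only regions, where the rule leaves no flox peak. Outside them KO replicates 1 and 2 had 6340 and 6792 bp, below the flox values. The 6 regions lay 108 to 466 kb from the 5′ end and were weak, with the highest lower score at chr6:94023051-94024251 (73.07 and 81.4) and the lowest at chr6:93817520-93818698 (63.2 and 50.5).

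Kcnip4, which encodes a protein that modulates Kv4 potassium channels (chr5:48389503-49525122), had 6 KO-only and 1 flox-only region among 62, and 0 to 2 in each mixed pair. KO replicates 1 and 2 had 30038 and 34334 bp under peaks, against 23042 and 22187 bp in flox replicates 1 and 2. Outside the KO-only regions, which the rule leaves without flox peaks, KO replicates 1 and 2 had 24152 and 28612 bp. Its widest KO-only region (chr5:49129756-49131659, 1904 bp) had scores of 93.3 and 94.8, 394 kb from the 5′ end. With peaks scoring at least 100, Kcnip4 and Magi1 each held 0 KO-only regions.

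In 5 of the other 6 of these genes, another pair had as many regions as the KO pair or more, and Agbl4 was the exception. Lsamp, an adhesion molecule gene of neurons (chr16:39984254-42181679), had 6 KO-only and 1 flox-only region, and 3 to 11 in mixed pairs. Agbl4, a carboxypeptidase gene (chr4:110397649-111664324), had 6 KO-only, 4 flox-only and 0 to 5 mixed-pair regions. Dpp10, which encodes a partner of Kv4 channels (chr1:123332138-124845815), had 5 and 5, with 3 to 4 in mixed pairs. Tenm2, a teneurin adhesion gene (chr11:36006656-37237053), and Macrod2 (chr2:140395303-142392966) each had 5 KO-only and 3 flox-only regions. Cdh13, the gene of T-cadherin (chr8:118140017-119324929), had 5 KO-only and 7 flox-only regions and 90 regions called in all 4 libraries. In Lsamp, Tenm2 and Macrod2 up to 11, 5 and 8 regions belonged to 1 mixed pair.

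Members of gene families were counted by 20 lists. Genes entered a list by a match of their symbol, so a list's name need not describe every gene in it. The share of KO-only regions in each list given here can be set beside the 2.71% of all regions in genes. In 13 lists the number of KO-only regions was within the range of the 4 mixed pairs, in 5 it was above and in 2 below. With so many lists and small numbers, no list is set apart by these counts, and none was tested.

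**Figure D5:**
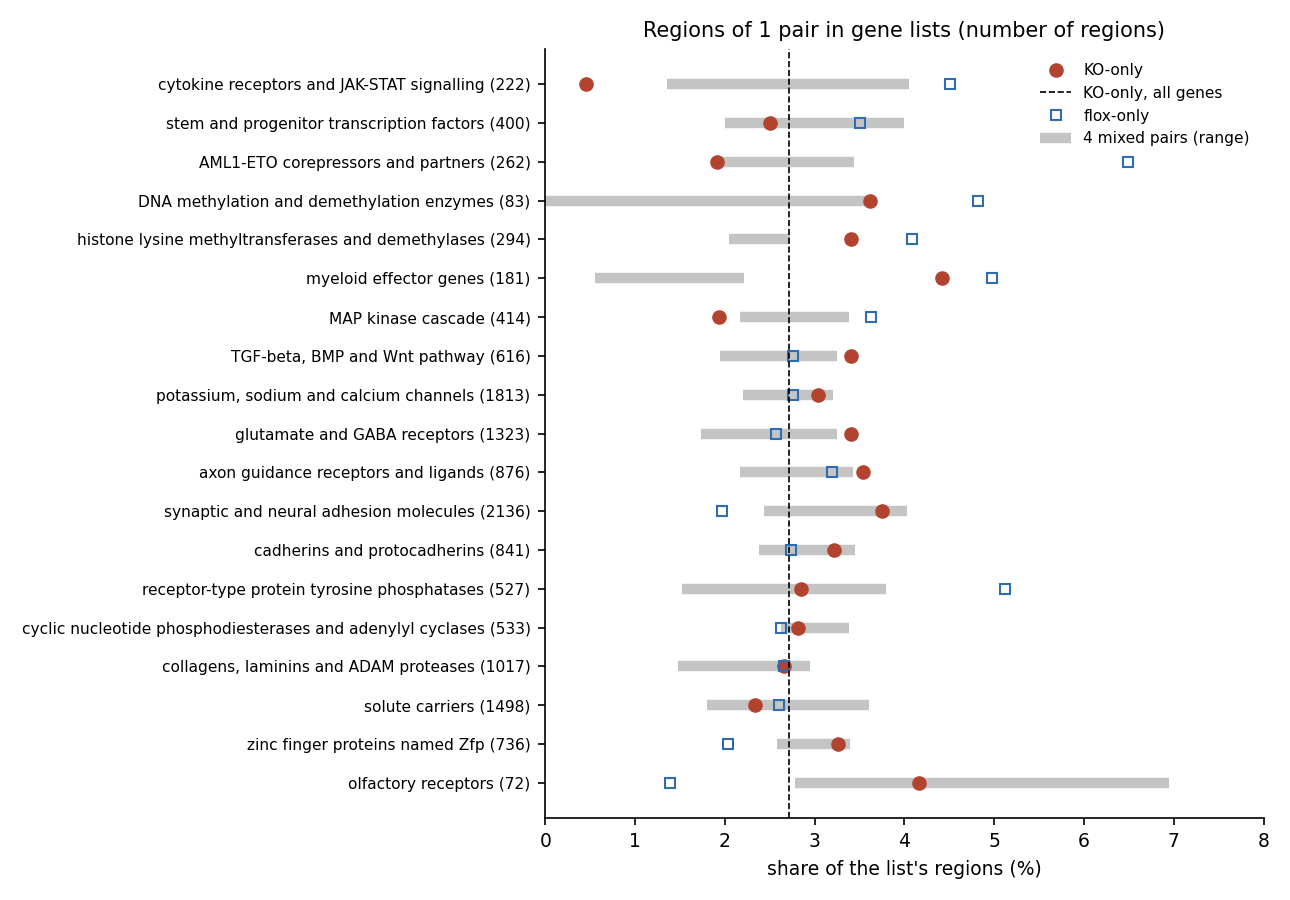
Share of the regions in each of 19 of the 20 gene lists (%) that were KO-only (red dots) or flox-only (blue open squares), with the range over the 4 mixed pairs as grey bars, the number of regions in brackets and a dashed line at the 2.71% of all regions in genes. The synaptic and neural adhesion list shows 3.75% KO-only against 1.97% flox-only, and the cytokine list 0.450% against 4.50%.

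Genes of synaptic and neural adhesion had 80 KO-only regions in 37 of 59 genes, 3.75% of the list's 2136 regions (3.02 to 4.64). Flox-only regions numbered 42, and mixed pairs 52 to 86. Its strongest regions were the one in Ctnna3 given above and one in Cntnap4, a contactin-associated protein gene (108 and 140, chr8:112620078-112620672). Glutamate and GABA receptors and their scaffolds had 45 KO-only regions (3.40%), against 23 to 43 in mixed pairs and 34 flox-only. Here Grin3a, an NMDA receptor subunit gene, had a region of 1952 bp (107 and 114, chr4:49782292-49784243). Axon guidance genes had 31 (3.54%), against 19 to 30 in mixed pairs and 28 flox-only, with the ephrin receptor gene Epha6 (97.65 and 123.80, chr16:60577089-60578228) and the netrin receptor gene Unc5d (112 and 84.7, chr8:28707143-28708000) first. The genes of these 3 lists had median lengths of 371, 184 and 49.8 kb. With peaks scoring at least 100 the 3 lists had 39, 21 and 10 KO-only regions.

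Ion channels had 55 KO-only regions (3.03%), 40 to 58 in mixed pairs and 50 flox-only, and were led by Cacna1c, a voltage-gated calcium channel gene (119 and 102, chr6:119118635-119119597), and Kcnk3, a leak potassium channel gene (111 and 101, chr5:30595827-30596457). Cadherins and protocadherins had 27 (3.21%), inside the 20 to 29 of mixed pairs, led by Dchs2 (111 and 131, chr3:83283052-83283534). Receptor-type tyrosine phosphatases had 15 (2.85%), against 8 to 20 in mixed pairs and 27 flox-only, led by Ptpro (96.4 and 87.3, chr6:137290458-137292172). Collagens, laminins and ADAM proteases had 27 (2.65%), against 15 to 30 and 27 flox-only. All 4 families lay in the mixed-pair range.

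Cytokine receptor and JAK-STAT genes, which carry growth factor signals, had 1 among 222 regions (0.450%, 0.0796 to 2.51), against 3 to 9 in mixed pairs and 10 flox-only. That region lay in the prolactin receptor gene Prlr (61.2 and 89.8, chr15:10244323-10245123). With peaks scoring at least 100 the list had 4 KO-only regions. Stem and progenitor transcription factors had 10 among 400 (2.50%), against 8 to 16 and 14 flox-only, with Mecom and Tcf12, both described above, as the strongest. MAP kinase cascade genes had 8 among 414 (1.93%), against 9 to 14 and 15 flox-only. Map2k1, which encodes the kinase MEK1, had scores of 70.2 and 75.1 (chr9:64201365-64202608), and the upstream kinase gene Map3k9 had 69.3 and 105 (chr12:81768326-81769498).

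Corepressors and partners of AML1-ETO had 5 KO-only regions in 2 genes (1.91%), against 5 to 9 in mixed pairs and 17 flox-only. The histone deacetylase gene Hdac9 held 3 of them and no flox-only region (strongest 90.3 and 122, chr12:34116724-34117611). Zbtb16, the gene of the zinc finger repressor PLZF, held the other 2, beside 2 flox-only regions, with scores of 73.4 and 58.1 at the strongest (chr9:48688046-48689273).

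Genes of DNA methylation had 3 KO-only regions (3.61%), against 0 to 3 in mixed pairs and 4 flox-only. Dnmt3a, the gene of a de novo DNA methyltransferase often mutated together with TET2 in leukaemia, had a region of 1510 bp with scores of 90.9 and 134 (chr12:3846394-3847903), 45.6 kb from the 5′ end, and held 1 flox-only region too. Mbd5, of the methyl-CpG binding domain family, had scores of 103 and 109 (chr2:49307227-49307918). Histone lysine methyltransferases and demethylases and their partners had 10 among 294 (3.40%), against 6 to 8 in mixed pairs and 12 flox-only. The region in Kdm2b, a demethylase gene that recruits Polycomb complexes to CpG islands, lay 0.886 kb from the 5′ end (71.6 and 73.5, chr5:122988003-122988766). Asxl3, of the Asxl family, held 3 of the list's 10 among 13 regions, with 0 flox-only and 0 in mixed pairs, and the strongest had scores of 78.3 and 76.5 (chr18:22470610-22471484).

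Myeloid effector genes had 8 among 181 regions (4.42%, 2.26 to 8.48), against 1 to 4 in mixed pairs and 9 flox-only, so both genotypes' own pairs were above the mixed pairs. With peaks scoring at least 100, 1 KO-only region was found in the list. Msr1, a macrophage scavenger receptor gene, had 68.9 and 93.2 (chr8:39563205-39564005), and the lectin gene Clec2l had 62.0 and 105 (chr6:38679457-38680323). The TGF-beta, BMP and Wnt list had 21 (3.41%), against 12 to 20 and 17 flox-only, led by the glypican gene Gpc6 (87.5 and 97.0, chr14:117250055-117250593) and the ligand gene Wnt10a (83.8 and 108, chr1:74792374-74793171). Phosphodiesterases and adenylyl cyclases had 15 (2.81%; 14 to 18 in mixed pairs, 14 flox-only) and solute carriers 35 (2.34%; 27 to 54, 39 flox-only). Zfp zinc fingers had 24 (3.26%; 19 to 25, 15 flox-only) and olfactory receptors 3 (4.17%; 2 to 5, 1 flox-only). Pde4d (89.3 and 149, chr13:109144601-109145083) and Slc35f5 (111 and 130, chr1:125590940-125591547) held the strongest regions of the phosphodiesterase and solute carrier lists.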

How the data were processed

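The submitters' processing notes name MACS 1.4, Bowtie, CASAVA 1.8 and the mouse build GRCm38, without roles or settings. The authors deposited 1 list of peaks per library for 4 of 6 samples; IgG and input samples were not analysed here. The deposited score of each peak equals -10 log10 of its p-value (checked within 0.02), and both were used to describe, rank or filter peaks. Depth is unknown. Coordinates count from 1.

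Peaks were merged where they shared 1 bp or more (Python 3.11.15, pandas 2.3.3; bedtools 2.31.1 gave the same 171780 regions). Midpoints were placed in 20665 autosomal RefSeq protein-coding gene spans (GRCm38.p6); 16457 had a strand. Exons and introns were not analysed here. Merging, classes and sums were tested on simulated peaks. Wilson intervals are from scipy 1.17.1.

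The members and lists were chosen with earlier results of these data known. Named regions were the 10 strongest, the 5 widest, the 8 genes with most regions (at least 3), up to 2 genes a list, and up to 6 at promoters; unnamed gene models (Gm or Rik symbols) were passed over except among the widest. Alternatives changed the peaks used, the overlap, the place in a gene and the libraries. A gene list and some named regions are not reported here.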

Additional observations from a re-analysis of the deposited data

How the results depend on the processing

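The number of KO-only regions in genes was 1705 to 1895 under other overlap rules and placements and without the 10% lowest scored peaks, 1091 with peaks of a score of at least 100 and 918 with the 50000 highest scored of each library. Without KO replicate 1 or 2 it was 6495 or 5955, since 1 KO call fewer is then needed. Without flox replicate 1 or 2 it was 4840 or 4446, since absence from 1 flox library fewer is then needed. Host genes numbered 924 with peaks of at least 100, 794 with the 50000 highest and 2851 to 3785 with a library left out. Among the 8 genes with the most regions, 8 changed more than 1.5-fold with peaks of at least 100, and 7 with the 50000 highest. Under both settings Magi1 and Kcnip4 held 0 KO-only regions, and 0 of the 5 widest regions stayed KO-only. The 10 strongest regions, unnamed gene models passed over, stayed KO-only under both. The log2 ratio to mixed pairs, 0.03, was -0.085 with the 50000 highest, -0.02 without flox replicate 2 and 0.12 without flox replicate 1. With a KO library left out, the reference was instead the mean of the regions called in 1 flox library alone. That log2 ratio, a different measure, was -0.05 without KO replicate 1 and -0.24 without KO replicate 2. The cause of these turns was not tested. The share in genes was 37.9% without the 10% lowest scored peaks and 36.6% to 37.7% with a library left out. The median lower score was 113 with peaks of at least 100, 121 with the 50000 highest, 67.1 without the 10% lowest and 63.5 to 65.8 with a library left out. The flank difference of -33.5 bp was -9.64 with peaks of at least 100, -4.19 without the 10% lowest and -50.6 to -21.6 with a library left out. With lists cut to equal length, a choice made after seeing the data, there were 1804 regions with a median lower score of 63.0. No paired analysis was possible because the results come from no test. Without known depth, a missing flox peak does not show missing 5hmC.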

Other observations

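Of the genes with 4 or more KO-only regions, 7 besides Magi1 held no flox-only region, and they were picked out after their values were seen. Cadps, which encodes an activator of dense-core vesicle release, had 5 KO-only among 38 regions, with up to 3 in a mixed pair. Brinp3 had 4 among 20 (up to 1 in a mixed pair), Adam22, a receptor gene of the synaptic protein LGI1, 4 among 18 (up to 2), and Adamtsl3 4 among 20 (up to 1). The estrogen receptor gene Esr1 had 4 among 37, Kcnj6, of a G protein-gated potassium channel, 4 among 43, and Shisa9, of a glutamate receptor accessory protein, 4 among 34, each with up to 2 in a mixed pair. Outside the KO-only regions, which by the rule hold no flox peak, Brinp3 had 7895 and 6956 bp under peaks in KO replicates 1 and 2, against 6390 and 7332 bp in flox replicates 1 and 2. Adamtsl3 had 10197 and 12185 bp in KO, against 11650 and 12135 bp in flox, so the libraries of the genotypes overlapped in both genes. Genes with 4 or more regions of 1 pair that topped every other pair numbered 17 for the KO pair, 11 to 22 for mixed pairs and 19 for the flox pair.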
